A study of Mus musculus with 6 samples.

Results

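Distal regions of open chromatin that were listed 48 h after 2iL withdrawal, and in neither the list before it nor the list at 96 h, numbered 10755 of 131410 merged regions (8.18%). They made up 17.3% of the 62054 distal regions in the 48 h list (exact binomial 95% interval 17.0% to 17.6%), and that percentage is the background for every share below. The E14 line of mouse embryonic stem cells was grown in N2B27 medium with 2iL, or was collected 48 h or 96 h after that mixture was replaced by plain N2B27. The mixture holds LIF, a cytokine, together with CHIR99021, which inhibits GSK3, and PD0325901, which inhibits MEK. Samples A and B made up every group, all of 1 line, and 1 deposited peak list stood for both, so the spread between samples is unknown and no test between conditions was made. Intervals of the 3 lists that overlapped by 1 bp or more were merged on mm10. A merged region was kept when it held an interval from the 48 h list only and its midpoint lay more than 1 kb and up to 100 kb from the nearest end of a protein-coding gene. The regions were thus chosen by measured values, their presence and absence in the lists, and none of the counts of presence is a finding about them. A list has no value outside its intervals, so absence means that no interval was called, not that accessibility was 0.

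ATAC-seq marks DNA that a transposase can reach, and sites far from gene starts that are open in this way are often enhancers, to which transcription factors bind. Cells in 2iL are in the naive pluripotent state, held there by factors such as Nanog, Esrrb, Klf4 and Tfcp2l1. When the inhibitors and LIF are removed, ERK signalling resumes, the naive factors decline and the cells pass through a formative state, marked by Otx2, Pou3f1, Fgf5 and the de novo DNA methyltransferases, before they commit to a lineage.

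Sequence could be read for those 48 h-only distal regions whose strongest summit lay in a RefSeq start window, the stretch of 250 bases before to 50 bases after an annotated gene start (GRCm38.p6, the assembly of mm10). These were 82 of the 10423 regions on the chromosomes that the window table covers, or 0.787% (0.626% to 0.976%), 50 at lncRNA genes and 32 at protein-coding genes. Such starts lie inside a protein-coding gene or belong to a noncoding gene, since the outer ends of coding genes are more than 1 kb away. The 5 below have the highest 48 h folds of the 82 and show what the strongest of these sites read like. Capitals mark matches to the searched motifs. Plekhs1, chr19:56461387-56461686, plus strand, carries ATTGG for NFY, CCTGCTG for ZIC and TAATCC for OTX. Col6a5, chr9:105960594-105960893, minus strand, carries the E-box CAGCTG at 2 places and CAGCAGG for ZIC. The lncRNA Gm31473, chr2:92041606-92041905, plus strand, carries CAGCTG and CCAAT. In 6430548M08Rik, chr8:120144679-120144978, plus strand, ATCAAAG for TCF/LEF and CAGCAGG at 2 places are marked. The lncRNA 1700006H20Rik, chr3:136955099-136955398, minus strand, holds AGATAA once and its reverse complement TTATCT at 2 places, the letters of GATA factors.
Plekhs1: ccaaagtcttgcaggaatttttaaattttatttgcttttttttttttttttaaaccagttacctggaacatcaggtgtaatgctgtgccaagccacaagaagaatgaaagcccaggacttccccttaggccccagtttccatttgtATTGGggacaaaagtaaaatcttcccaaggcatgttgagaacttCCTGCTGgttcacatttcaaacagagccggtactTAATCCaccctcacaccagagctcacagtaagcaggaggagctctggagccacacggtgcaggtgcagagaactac
Col6a5: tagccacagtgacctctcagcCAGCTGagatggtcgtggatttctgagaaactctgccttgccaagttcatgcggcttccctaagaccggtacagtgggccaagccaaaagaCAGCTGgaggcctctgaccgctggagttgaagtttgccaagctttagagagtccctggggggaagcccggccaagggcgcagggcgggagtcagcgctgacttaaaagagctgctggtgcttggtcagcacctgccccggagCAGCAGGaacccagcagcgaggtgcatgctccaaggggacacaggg
Gm31473: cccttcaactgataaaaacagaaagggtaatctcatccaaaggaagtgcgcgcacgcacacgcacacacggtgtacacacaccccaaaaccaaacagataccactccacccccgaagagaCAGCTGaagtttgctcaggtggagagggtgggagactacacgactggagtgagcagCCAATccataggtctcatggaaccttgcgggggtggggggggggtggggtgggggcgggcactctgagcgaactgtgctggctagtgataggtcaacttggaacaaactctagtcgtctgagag
6430548M08Rik: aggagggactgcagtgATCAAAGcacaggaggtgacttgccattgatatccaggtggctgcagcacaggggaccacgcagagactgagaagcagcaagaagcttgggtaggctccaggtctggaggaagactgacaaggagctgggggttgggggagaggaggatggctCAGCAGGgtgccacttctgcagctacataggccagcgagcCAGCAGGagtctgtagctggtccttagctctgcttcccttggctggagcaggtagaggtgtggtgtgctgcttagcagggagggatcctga
1700006H20Rik: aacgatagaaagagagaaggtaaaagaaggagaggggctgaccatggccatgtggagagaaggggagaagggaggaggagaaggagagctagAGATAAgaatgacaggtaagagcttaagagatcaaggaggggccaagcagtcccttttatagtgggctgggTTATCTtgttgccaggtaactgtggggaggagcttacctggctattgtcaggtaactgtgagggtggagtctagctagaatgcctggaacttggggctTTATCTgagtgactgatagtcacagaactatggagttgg

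The strongest summits of these 5 regions lay 11 to 61 bp from the annotated start, and their folds at 48 h were 13.6 at Plekhs1, 10.1 at Col6a5, 9.40 at Gm31473, 9.09 at 6430548M08Rik and 8.96 at 1700006H20Rik. Across all 82 windows, the letters CAGCAGG of ZIC factors stood on either strand in 18 (22.0%, 13.6% to 32.5%). They stood in 18.2% of the 274 windows at distal regions shared by 48 h and 1 other list, in 14.6% of the 1710 windows at all other distal 48 h regions, and in 10.5% of all 32817 windows. The shares of the 274 and the 1710 lie inside the interval of the 82. CCAAT, the letters bound by NFY, were in 24.4% (15.6% to 35.1%) of the 82 windows, against 37.6% of the 274, 38.9% of the 1710 and 37.4% of all windows. AGGGGGC, from the CTCF core, was in 4.88% (1.34% to 12.02%), against 13.5%, 16.8% and 10.6%. These 3 motifs of 17 were chosen after their values were seen. Each of the 17 motifs was searched on both strands, and none holds another. The median window of the 48 h-only regions had 5 CG pairs and 53.7% GC, against 6 CG pairs and 53.7% GC for the 274 windows. The 1710 windows were richer in both, with 14 CG pairs and 59.0% GC, so their motif shares come from sequence of another composition. All windows had 7 CG pairs and 52.7% GC. With 82 windows most intervals are wide, and a match is only a run of letters.

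A few 48 h-only distal regions overlapped miRNA hairpins, 11 of 10423 or 0.106% (0.0527% to 0.189%), against 0.101% of regions shared with 96 h, 0.0765% of those shared with 2iL and 0.231% of those in all 3 lists. The 4 mature sequences below, from RefSeq, belong to the best known of these miRNAs and show which products the overlapped hairpins give, with the seed (bases 2 to 8) in capitals. They come from Mir365-1 (chr16:13453840-13453926, plus strand, region fold 8.34), Mir26a-2 (chr10:126995530-126995613, plus strand, fold 6.14), Mir202 (chr7:139957689-139957760, minus strand, fold 4.09) and Mir499 (chr2:155622880-155622958, plus strand, fold 2.69). The 4 seeds differ. The region at Mir365-1 starts at 13453877, inside the hairpin, and the others hold the hairpin whole. The strongest summits lay outside the hairpins, 330 bp away at Mir365-1, 74 bp at Mir26a-2, 277 bp at Mir202 and 111 bp at Mir499. The region at Mir202 lay 12.8 kb from Utf1.
mmu-miR-365-3p: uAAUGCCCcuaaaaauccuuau
mmu-miR-26a-5p: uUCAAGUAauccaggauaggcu
mmu-miR-202-5p: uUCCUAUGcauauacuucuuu
mmu-miR-499-5p: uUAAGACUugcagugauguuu

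The 48 h-only distal regions were weak among the distal regions of their own list, although they reached high folds at some sites. The fold, −log10 p and score of a region are the authors' values at its strongest summit. The median 48 h fold was 5.42 for the 48 h-only regions, and 25% of them lay under 4.38 and 25% above 6.80. For regions shared with 96 h the median was 6.78, for regions shared with 2iL 6.60, and for regions in all 3 lists 10.1. A fold above 10 was reached by 578 of the 48 h-only regions (5.37%), against 20.2% of those shared with 96 h, 15.8% of those shared with 2iL and 51.0% of those in all 3 lists. The median −log10 p was 48.0 in the 48 h-only regions and 128 in the other distal 48 h regions. The lowest value in the list was 7.06, but 90% of the 48 h-only regions lay above 28.0. Only 2 of the 10755 regions had a −log10 p under 10.

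Width and shape differed in the same direction. Median widths in the 48 h list were 486 bp for the 48 h-only regions, 539 bp with 96 h, 574 bp with 2iL and 707 bp for all 3 lists. A single summit was present in 57.5%, against 53.1%, 47.7% and 32.4% in those same classes. The score was at its ceiling of 1000 in 42.3% of the 48 h-only regions, against 71.0%, 65.4% and 93.5%. It was under 600, where the lowest listed score is 540, in 9.72% of the 48 h-only regions, against 3.61%, 4.3% and 0.605%. More of them thus lay near the lower end of the listed scores. In their own lists, distal regions found only in 2iL had a median width of 585 bp. Those found only at 96 h had 451 bp and were narrower still than the 48 h-only regions. The tag count at the strongest summit, recovered from the fold and p, had a median of 121 in the 48 h-only regions and 194 in the other distal 48 h regions with a −log10 p under 290, over a local expectation of 16.7 and 20.6 tags. The lowest recovered tag count of a 48 h-only region was 39, over the 10724 of them with a −log10 p under 290.

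**Figure D1:**
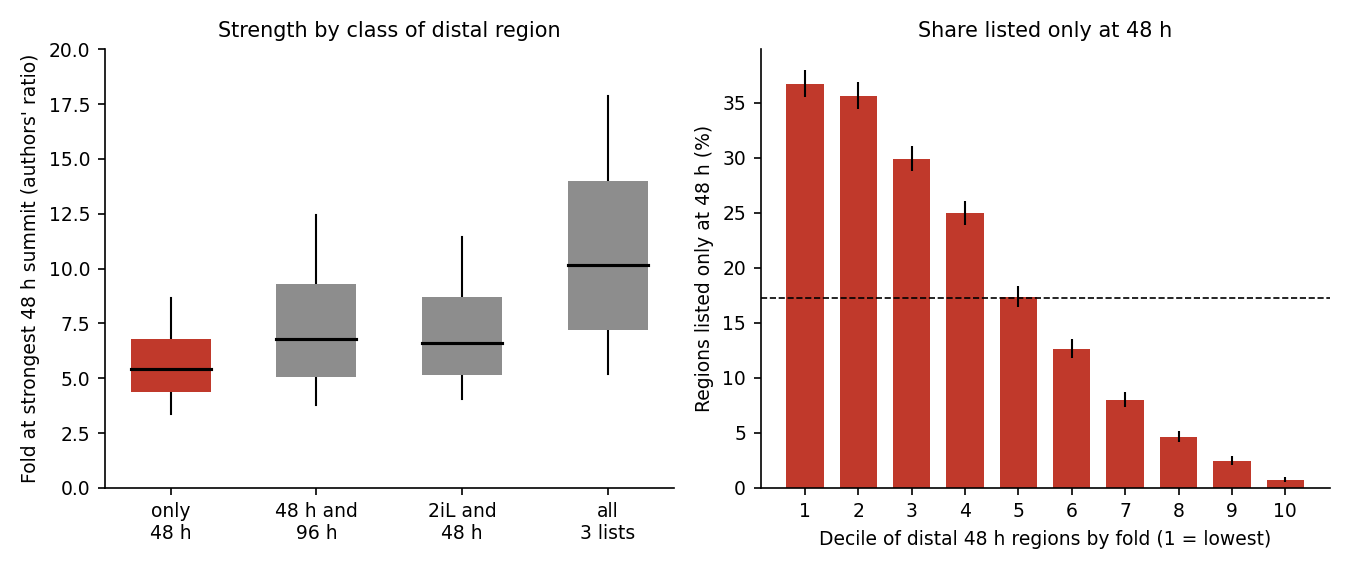
Left, fold at the strongest 48 h summit (linear axis, authors' ratio) for distal regions listed only at 48 h (red) and for regions shared with 96 h, with 2iL or with both (grey). Boxes span the quartiles, black lines are medians and whiskers run to the 10th and 90th percentiles. Right, percent of distal 48 h regions listed only at 48 h in each decile by fold, with exact 95% intervals. The dashed line is the share over all deciles, 17.3%, and the bars descend to 0.710% in the strongest decile.

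The share listed only at 48 h fell as the fold rose, across the whole range of folds, as the plot of strength shows. In the weakest decile of distal 48 h regions, with folds of 1.66 to 4.17, 36.8% (35.5% to 38.0%) were listed only at 48 h. In the fifth decile the share was 17.4%, and in the strongest decile, above a fold of 15.4, it was 44 of 6201 regions, or 0.710% (0.516% to 0.951%). Within a fold decile the 48 h-only regions were still the narrower, for example 480 bp against 526 bp in the third decile and 657 bp against 711 bp in the eighth decile. When the 48 h list was restricted to folds at or above its median, 8.14, 1393 regions remained, 4.92% of 28337. Main shares by distance, chromosome and gene list are given below beside the share that the folds alone would give. It is the mean, over the regions in question, of the overall share in their fold deciles. This value is a description and no test.

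The strongest 48 h-only region lay at chr11:87559502-87560172 on mm10, inside the lncRNA gene Gm34000 and 4.01 kb from Tex14, a gene of the intercellular bridges of germ cells. Its fold was 22.2 and the nearest interval of another list, one at 96 h, was 3868 bp away. The next, at chr1:137013262-137013926 with a fold of 20.9, lay 53.1 kb upstream of Nr5a2, which encodes an orphan nuclear receptor of the naive network. A region at chr19:9753684-9754535 (fold 20.6) was 93.4 kb from Scgb2a2. Inside the large gene Nf1, which encodes a RAS-inactivating protein, a region of fold 20.03 was nearest to the end of the nested gene Omg, 51.1 kb away. The remaining 6 of the 10 strongest were at Atl3 (an atlastin of the endoplasmic reticulum, 19.996), inside Shisa6 (an AMPA receptor auxiliary protein, 19.7), and near Zcchc13 on chromosome X (19.3), Ptpru (a receptor tyrosine phosphatase, 19.1), Enpp6 (a choline-specific phosphodiesterase, 18.9) and Atp6v0a4 (a proton pump subunit, 18.8). These 10 stood 1138 to 55928 bp from the nearest interval of the 2iL or 96 h list, so none lay within 1 kb of one.

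At the limits of the rule, values were close on both sides. The 5 regions just inside the 1 kb limit lay 1004 to 1014 bp from a gene end, with folds of 2.77 to 6.30, and the 5 just outside lay 994 to 999 bp away, with folds of 2.74 to 6.81. At 100 kb, the 5 just inside were 99898 to 99990 bp away, one of them at Sall1, and the 5 just outside 100027 to 100445 bp. Of all regions listed only at 48 h, 908 were within 1 kb of a gene end and 2085 were over 100 kb away. The 5 regions nearest to an interval of another list were separated from it by 12 to 40 bp. The 5 kept out by the smallest overlaps shared 68 to 139 bp with an interval of 2iL or 96 h.

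By the rule, no 48 h-only distal region overlapped an interval of another list. The median gap to the nearest 2iL or 96 h interval was 3356 bp, and 1202 regions (11.2%, 10.6% to 11.8%) lay within 500 bp of one. Counting those as shared would leave 9553 regions, or 15.4% of distal 48 h regions. The nearest merged region of any class was one in all 3 lists for 37.6% of the 48 h-only regions, a 2iL-only region for 18.1%, and another 48 h-only region for 12.6%. Over all other merged regions, those classes hold 35.9%, 20.8% and 10.5%. Another 48 h-only region was within 10 kb of 23.0% of them.

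Counts of presence in the lists, by which the regions were chosen, are given here as description only. Regions missing at 48 h alone were fewer than regions present at 48 h alone. The former must be called in both other lists, the latter only in the 48 h list. The 10755 distal regions listed only at 48 h compare with 2003 distal regions in the 2iL and 96 h lists but absent at 48 h, a ratio of 5.37. Of the 20948 distal regions absent from 2iL and listed at 48 h, 51.3% (50.7% to 52.0%) were not in the 96 h list and 48.7% were. In the other lists, 33.9% of 65172 distal 2iL regions were found only there, and 19.2% of 52547 distal 96 h regions only there. The most frequent local expectation, which follows the depth behind a list, was 14.2, 15.2 and 13.99 tags for the 2iL, 48 h and 96 h lists. Its part in these counts was not tested. With the 3 lists trimmed to an equal number of intervals by −log10 p, 7752 regions were listed only at 48 h, 14.4% of distal 48 h regions. The ratio was not recomputed for the trimmed lists.

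The 48 h-only regions lay at a median of 15.1 kb from the nearest end of a protein-coding gene, with quartiles of 6.12 and 35.6 kb. The median was 16.5 kb for regions shared with 96 h, 15.6 kb for those shared with 2iL and 12.8 kb for those in all 3 lists, and it was 17.2 kb for 2iL-only and 20.5 kb for 96 h-only regions. Inside a protein-coding gene were 56.2% (55.3% to 57.2%), against 54.3% to 55.9% of the shared classes, 59.3% of 2iL-only and 57.3% of 96 h-only regions. The 5′ end was the nearer one for 49.7% of the 8403 regions at genes of known strand. Exons and introns were not told apart. The end of a gene that is not protein-coding lay within 1 kb of 661 regions, or 6.15%, against 6.62% of regions shared with 96 h, 6.55% of those shared with 2iL and 8.82% of those in all 3 lists, and it was 4.58% for 2iL-only and 5.26% for 96 h-only regions.

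Beside the fold, the distance to a gene had its own gradient, shown in the plot of shares by distance. Of distal 48 h regions 1 to 2 kb from a gene end, 15.3% (14.2% to 16.3%) were listed only at 48 h, where the folds alone would give 22.0%. From 50 to 100 kb the share was 18.3% (17.5% to 19.1%), where the folds alone would give 15.3%. Median folds in these bins were 6.22 and 8.28, so the regions near genes had the lower folds and yet the lower share. Fold is a ratio to the local expectation, and tag counts and −log10 p were not compared by distance. Among autosomes, the share was lowest on chromosome 6, 15.1%, and highest on chromosome 16, 18.4%, where the folds alone would give 16.7% and 16.5%. It was 20.3% (17.9% to 22.9%, 211 of 1037) on chromosome X, where the folds alone would give 15.4%.

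**Figure D2:**
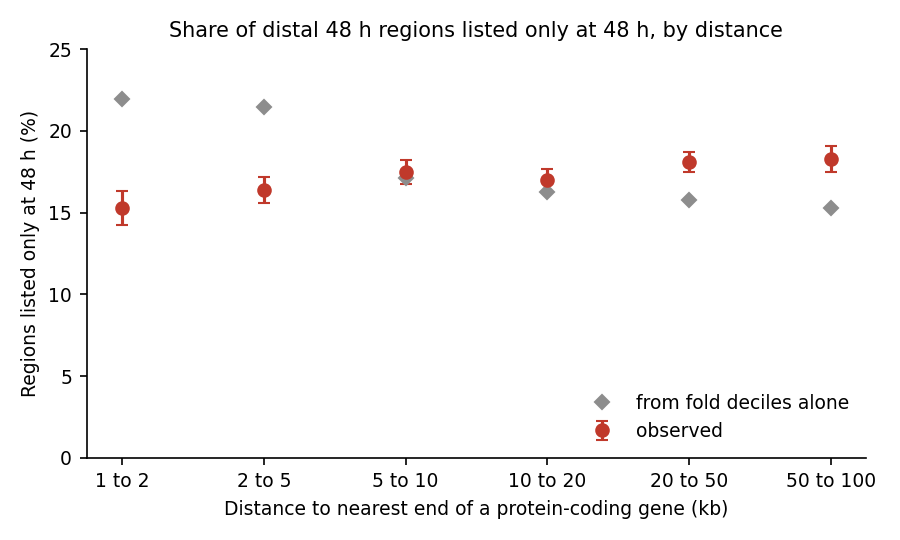
Percent of distal 48 h regions that were listed only at 48 h, by distance to the nearest end of a protein-coding gene in kb. Red points are observed shares with exact 95% intervals and grey diamonds the shares that the fold deciles alone would give. The observed share is 15.3% at 1 to 2 kb and 18.3% at 50 to 100 kb, while the grey value is 22.0% and 15.3%.

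These regions were spread over many genes. By nearest end they fell to 6688 of the 14840 protein-coding genes with any distal 48 h region, and 4305 of those genes had 1 each. Only 181 genes had 5 or more, holding 1081 regions, and these genes were long, with a median of 130.0 kb against 27.8 kb for genes with 1. Along the chromosome, 64.1% had no other 48 h-only region within 20 kb, and 12.6% were in runs of 3 or more. Such runs were not counted for the other classes. A region assigned to a gene by its nearest end need not act on it.

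The gene with most 48 h-only distal regions was Mvb12b, which encodes a subunit of the ESCRT-I sorting complex, with 14 of its 34 distal 48 h regions. Of these 14, 7 lay inside the gene and the rest on both sides of it, over 266 kb of chromosome 2, with folds of 2.92 to 13.2. Pitpnc1, a phosphatidylinositol transfer protein gene of 263 kb on chromosome 11, had 11 of 21, all inside the gene, and none of its distal regions was shared by 48 h and 96 h alone. A stretch of 53.5 kb in it held 7 of the 11. The only other run of 7 spanned 50.1 kb of chromosome 11 at Exoc7, Foxj1 and Rnf157, where 3 other 48 h regions lay between them.

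Of the 12 genes with most such regions, several encode regulators of transcription. Med13l, of the Mediator kinase module, had 12 of 40, and Sall1, a zinc finger factor expressed in pluripotent cells and needed for kidney development, had 10 of 25. Casz1, a zinc finger factor of heart development, had 10 of 35, and Jarid2, an accessory subunit of the Polycomb complex PRC2, had 9 of 28. Zfp516, another zinc finger gene, had 9 of 35. The others were Katnal1, which encodes a microtubule-severing katanin subunit, with 10 of 33, the axonemal dynein gene Dnah8 with 10 of 35, Cachd1 with 9 of 19, Epb41l4a with 9 of 36 and the microtubule crosslinker gene Mtcl1 with 9 of 31. These genes were picked for their counts, and the folds alone would give 5.61 at Mvb12b, 4.40 at Pitpnc1, 5.67 at Sall1 and 2.88 at Cachd1. They would give 8.33 at Med13l, 6.08 at Katnal1, 8.48 at Casz1, 7.86 at Dnah8 and 5.40 at Jarid2. For Epb41l4a, Mtcl1 and Zfp516, with 9 each, the values are 7.33, 7.88 and 7.89, closer to the observed counts.

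**Figure D3:**
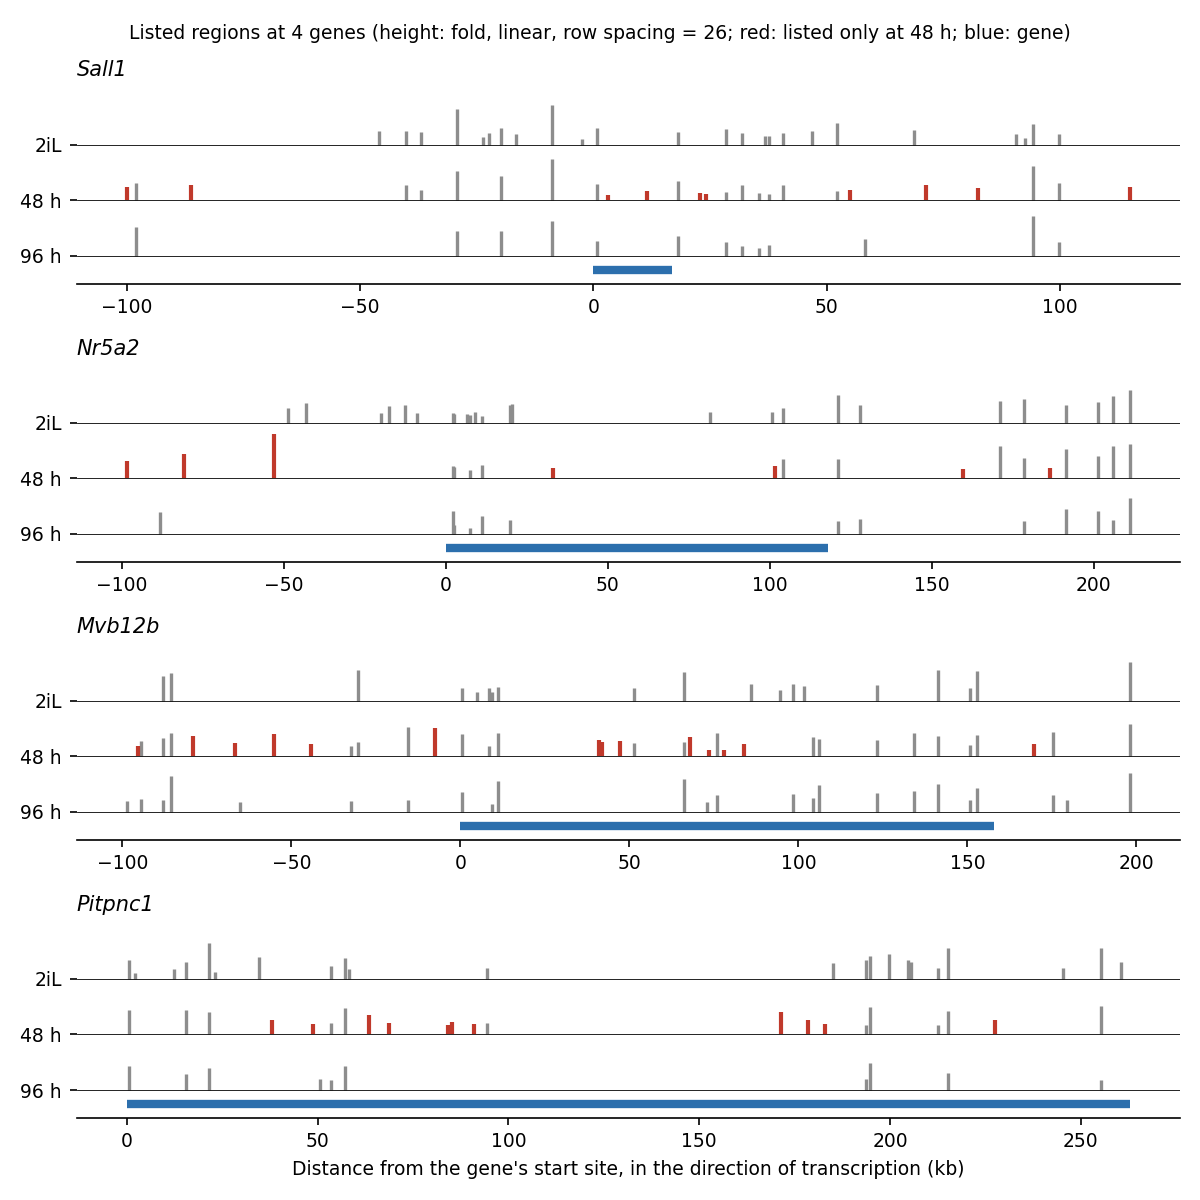
Listed regions at Sall1, Nr5a2, Mvb12b and Pitpnc1 by distance from the gene's start site in kb, in the direction of transcription. Rows are the 2iL, 48 h and 96 h lists, each line is a region with its height proportional to the fold in that list, red marks distal regions listed only at 48 h and the blue bar is the gene. The 10 red lines at Sall1 fall on both sides of the gene, and the tallest red line at Nr5a2 is the region of fold 20.9.

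The gene ends themselves were mostly open at all times. Among genes with a 48 h-only distal region, 70.02% (68.9% to 71.1%) had a region within 1 kb of an end in all 3 lists, against 61.4% (60.3% to 62.4%) of genes with distal 48 h regions but none listed only then. The number of regions per gene was not matched in this pair. A gene-end region present at 48 h and absent in 2iL was found at 4.73% and 4.98% of those genes. As a check of the cell type, 18, 17 and 16 of 20 naive genes had a region at an end in the 2iL, 48 h and 96 h lists. Nanog, Klf4 and Zfp42 had one in each list, Esrrb had none in 2iL, Tcl1 none at 96 h, Dppa3 and Pecam1 one in 2iL alone, and Nr5a2 none. Of 12 general pluripotency genes 10, 11 and 9 had one, Pou5f1 and Sox2 in each list. Ends of genes that mark other cells were listed too: 6, 7 and 8 of 12 for extraembryonic endoderm, 9, 10 and 9 of 12 for trophoblast, and 5, 6 and 7 of 12 for fibroblasts. Listed gene ends therefore do not tell these cell types apart.

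At pluripotency genes the share listed only at 48 h is given for 3 lists, whose intervals all overlap in the plot by gene list. General pluripotency genes, which are active in naive and primed cells, had 22 of 77 distal 48 h regions listed only at 48 h, or 28.6% (18.9% to 40%). Their median fold was 6.60, and the folds alone would give 20.8%. Formative and primed genes had 47 of 209, or 22.5% (17.0% to 28.8%), at a median fold of 7.41 and a value of 18.9% from the folds. Naive genes had 28 of 187, or 15.0% (10.2% to 20.9%), at a median fold of 7.10 and a value of 19.3%. The interval lay above the background of 17.3% for the general list, and it held the background for the formative and the naive list. In all 3 lists the interval held the value from the folds. Without Sall1 the general list stood at 23.1% (12.5% to 36.8%), which holds the background, so its position rests on that gene. Among 48 h regions at or above the median fold it stood at 8.33% (1.03% to 27.0%), which holds the 4.92% of all such regions.

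**Figure D4:**
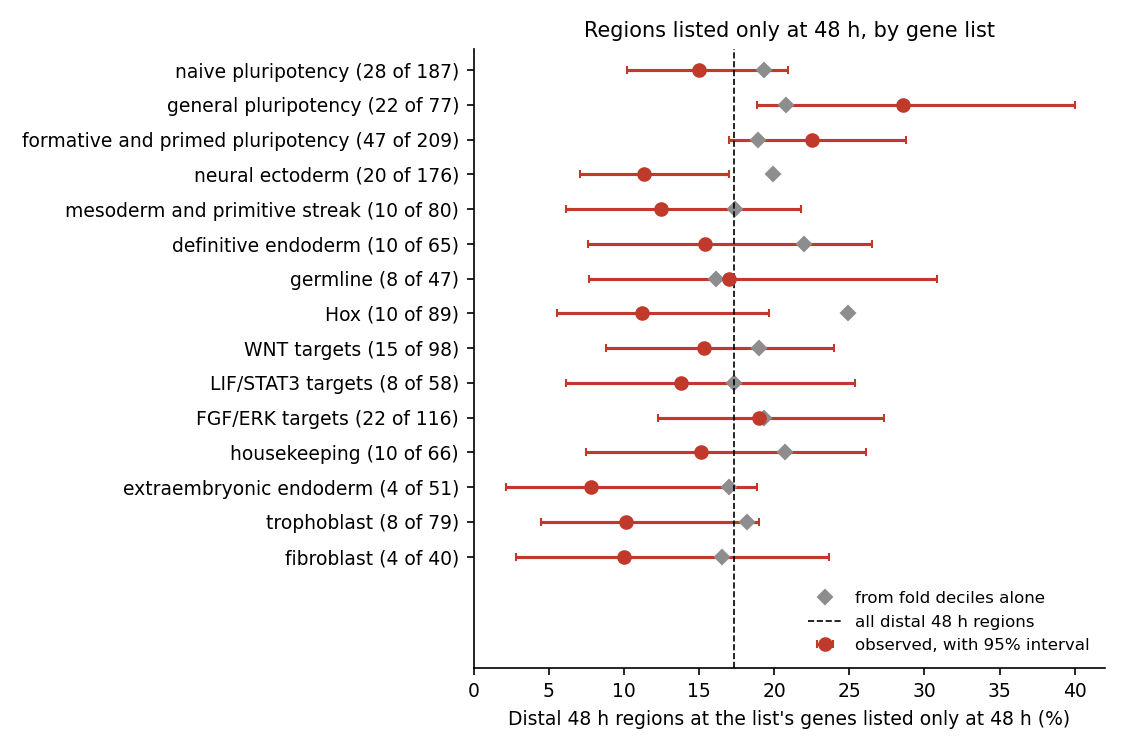
Percent of distal 48 h regions at the genes of each list that were listed only at 48 h, with counts beside the names. Red points carry exact 95% intervals, grey diamonds are the shares that the fold deciles alone would give and the dashed line is the share of all distal 48 h regions, 17.3%. The neural ectoderm interval lies left of the line, the general pluripotency interval right of it, and the 2-cell-like list, with 2 regions, is left out.

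In the general list, Sall1 (chromosome 8, 89027242 to 89044162 for the gene) had 10 regions listed only at 48 h, with folds of 2.34 to 7.06. Only 2 lay inside the gene, and the outer ones were 115 kb beyond its start site on the downstream side and 99.99 kb from it upstream. Another 10 distal regions at Sall1 were listed only in 2iL, so both lists had their own sites around 1 gene. Sox2, a core pluripotency factor, had 5 of 24, with folds of 5.21 to 7.57, of which 3 lay upstream and 2 downstream. At Dppa4, a chromatin factor of pluripotent cells, 3 of only 4 distal 48 h regions were listed only then, with folds of 9.15, 8.41 and 4.82, at 36.6, 6.67 and 20.6 kb from the gene. A region at an end of Dppa4 was likewise in the 48 h list and in neither of the others. The adjacent gene Dppa2 had 2 of 4, and Utf1, a chromatin factor of embryonic stem cells, had 2 of 4. Pou5f1, Lin28a and Lin28b had none, and were named after their values were seen.

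In the formative and primed list, 15 of 20 genes had at least 1 region listed only at 48 h. Among all protein-coding genes with a distal 48 h region, 6688 of 14840 did. The number of distal 48 h regions per gene, 209 over these 20 genes, was not matched. Grhl2, a factor that opens enhancers of epithelial genes, had 7 of 29, with folds of 2.69 to 8.62, 6 of them inside the gene. Lef1, a nuclear effector of WNT signalling, had 6 of 25, with folds of 2.21 to 7.34. Pou3f1, which encodes the POU factor Oct6, had 5 of 18. They lay 9.52 to 70.2 kb from the gene, all on 1 side, and the highest fold, 7.93, was at chr4:124630012-124630589. At Pou3f1 8 other distal regions were shared by 48 h and 96 h, and 0 were found only in 2iL or only at 96 h. Dnmt3a, a de novo DNA methyltransferase gene, had 5 of 18 with folds of 3.26 to 4.83, and Etv5, an ETS factor downstream of FGF signalling, had 4 of 11 with folds of 3.85 to 10.5.

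The naive list was led by Nr5a2, with 7 of 19 distal 48 h regions listed only then. Its 3 upstream regions had folds of 20.9, 11.2 and 8.16 at 53.1, 80.7 and 98.5 kb from the start site, while the other 4, inside or downstream, had folds of 4.57 to 5.81. None of the distal regions of Nr5a2 was shared by 48 h and 96 h alone, and 11 were found only in 2iL. Tbx3, a T-box factor of the naive network, had 3 of 17, the orphan receptor gene Esrrb 3 of 27, Fgf4, which encodes the FGF ligand of embryonic stem cells, 2 of 4, and Zfp281 2 of 23. At Esrrb all 3 lay inside the gene, with folds of 4.32 to 6.55. Without Nr5a2 the list stood at 12.5%.

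Targets of the pathways that 2iL acts on were near the background. FGF/ERK targets, which act downstream of the kinase that PD0325901 inhibits, had 22 of 116 listed only at 48 h, or 19.0% (12.3% to 27.3%). At least 1 was found at 11 of 15 genes, against 6688 of the 14840 protein-coding genes with a distal 48 h region. The number of distal 48 h regions per gene was not matched. Besides Etv5 the FGF/ERK targets were led by Spry1, an inhibitor of receptor kinase signalling, with 3 of 6. Dusp4, a phosphatase of ERK, had 2 of 7 with folds of 15.5 and 11.9, at 67.6 and 31.4 kb from the gene, the strongest of this list. Dusp5, another ERK phosphatase, had 2 of 9, and Spred1, an inhibitor of RAS signalling, had 2 of 8. WNT targets had 15 of 98, or 15.3% (8.83% to 24.0%), of which Lef1 and Tcf7, a related factor, held 10. For them the folds alone would give 19.0%. LIF/STAT3 targets had 8 of 58, or 13.8% (6.15% to 25.4%), where the folds alone would give 17.3%. Of the 8, 4 were inside Lifr, the gene of a LIF receptor subunit.

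Neural ectoderm, Hox, mesoderm and definitive endoderm genes had shares of 11.2% to 15.4%. Neural ectoderm genes had 20 of 176 regions listed only at 48 h, or 11.4% (7.08% to 17.0%), and the background lies above that interval. At a median fold of 7.04 the folds alone would give 19.9%. Among 48 h regions at or above the median fold the direction turned, with 6.35% (1.76% to 15.5%) at neural ectoderm genes and 4.92% over all regions, and with lists of equal length the interval, 4.99% to 14.6%, held the 14.4% of all regions. Pax2 had 3 of 24 and Pax7 3 of 21, both paired-box factors, and the neuronal microtubule gene Map2 had 2 of 5. Ncam1 had 2 of 14, and the oligodendrocyte factor gene Olig2 2 of 5. Hox genes, which pattern the body axis, had 10 of 89, or 11.2% (5.52% to 19.7%), the weakest regions of all lists by median fold, 5.63, so that the folds alone would give 24.9%. Hoxb1 was the only Hox gene with 2. Mesoderm and primitive streak genes had 10 of 80 (12.5%, against 17.4% from the folds alone), led by Lhx1 with 3 of 13 and Fgf8 with 2 of 3. Definitive endoderm genes had 10 of 65 (15.4%, against 22.0% from the folds alone), led by Onecut1 with 3 of 10. They stood at 1.96% with lists of equal length.

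Germline genes had 8 of 47, or 17.0% (7.65% to 30.8%), where the folds alone would give 16.1%. Of these, 4 of 15 were at Prdm1, a repressor that starts germ cell fate, and 2 of 2 at the RNA helicase gene Ddx4. The housekeeping list stood at 10 of 66, or 15.2% (7.51% to 26.1%), with 3 of 8 at Rab7 and 2 of 23 at Ywhaz. Its folds alone would give 20.7%. Markers of cells that a culture could also hold gave 4 of 51 (7.84%) for extraembryonic endoderm, 8 of 79 (10.1%) for trophoblast and 4 of 40 (10%) for fibroblasts, with 2 each at Pdgfra, Ascl2 and Tead4. For these 3 lists the folds alone would give 17.0%, 18.2% and 16.5%. The 2-cell-like list had 0 of 2, where the folds alone would give 20.1%. Across the 16 lists, the background lay outside the 95% interval for 2, general pluripotency, where this was lost without Sall1, and neural ectoderm, where it was lost with lists of equal length and where the direction turned at or above the median fold. Set beside the share from the folds alone instead, the lists whose intervals left it out were Hox and neural ectoderm. Both intervals lay under that share, 24.9% for Hox and 19.9% for neural ectoderm genes. The general pluripotency interval held its own value of 20.8%. All these intervals treat neighbouring regions as independent and cover counting error only, and no test of a list was made.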

How the data were processed

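Open chromatin was measured by ATAC-seq in 6 samples of E14 cells, 2 per group in 3 groups. Tools named in the submitters' processing notes, without roles, are BWA, Picard, SAMtools and bcl2fastq 2.20.0.422, with the build mm10. No source used here gives the peak caller, its settings or how reads were shifted to the transposase cut, and each could change which weak regions are listed. The labels name 1 list for both samples of a group, so replicates were combined by the authors, and nothing says whether A and B were separate cultures. The deposited score is a whole number per interval, the deposited fold is a linear ratio per summit, and deposited p-values were −log10 transformed.

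Intervals took the values of their summit with the highest −log10 p. A peak list states no depth, so tag counts were recovered for −log10 p under 290 from fold and a Poisson tail, whole within 0.02. Merging, distances and tag recovery were tested on simulated data. Genes came from NCBI RefSeq GRCm38.p6, and strand from the RefSeq start windows. Intervals in brackets are exact (Clopper-Pearson) 95% intervals. They cover counting error only. Analysis used Python 3.11.15, pandas 2.3.3 and scipy 1.17.1.

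The members and the 16 gene lists (241 genes, 240 matched to a protein-coding gene) were chosen with earlier results of these data known. Named were the 10 strongest regions, the 5 nearest to each limit, the 12 genes with most regions and, per list, up to 5 genes with at least 2, apart from an item not reported here. Alternatives were a 500 bp gap, a larger overlap, lists of equal length, stricter p, summit position, any gene, nearest gene body, the 48 h list at or above its median fold, and each list without its leading gene.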

Additional observations from a re-analysis of the deposited data

How the results depend on the processing

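Of 131 recomputed values, 108 stayed within the 95% interval, or within 1.5 times for counts, and 23 moved. With intervals of other lists within 500 bp counted as shared, the share was 15.4% and the median fold 5.52. Lists of equal length gave a share of 14.4%, a median fold of 6.42, a median width of 534 bp and 1.96% at definitive endoderm genes. With them the intervals of definitive endoderm, Hox and trophoblast genes lay under the 14.4% of all regions and that of neural ectoderm genes held it. Distance to any gene gave 18.01%. The 48 h list at or above its median fold of 8.14, chosen after seeing the data along with the lists without their leading genes, left 1393 regions, or 4.92%. The median fold of the 48 h-only regions, 5.42, is under that limit. List shares in this setting were 5.26% for naive, 8.33% for general and 7.23% for formative and primed pluripotency, 6.35% for neural ectoderm, 5.26% for Hox and 9.30% for FGF/ERK targets. Against 4.92% this turned the direction for the naive, neural ectoderm and Hox lists, and for germline (13.04%) and extraembryonic endoderm genes (8.33%). They were 0% for mesoderm, definitive endoderm, WNT targets, LIF/STAT3 targets, housekeeping, trophoblast and fibroblast genes. A −log10 p of at least 10 left 10753 regions, and the summit position 10761.

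Leaving out a replicate and the search around distal summits were not run, since 1 list stood for both samples and no genome was used here. No paired analysis was possible because each group had 1 list. The depth behind each list is not stated, and its part in the weakest calls was not tested. The cause of the moved values was not tested.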
